A study of Sus scrofa with 48 samples.

Results

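The insulin-like growth factor (IGF) system was followed across diet and line in the perirenal adipose tissue (PRAT) of pigs through 10 genes, namely the ligands IGF1 and IGF2, the receptors IGF1R and IGF2R, and the binding proteins IGFBP2 to IGFBP7. Members were all probes that the scanner files name after one of these genes, upper or lower case alike, without regard to their values. They are 10 of the 9378 genes with a kept probe, and their probes numbered 40 of the 60305 probes of the array, and 39 of them were among the 38142 probes that the study kept above background and that were tested here. All 40 probes were well above background and none was saturated on any of the 48 arrays.

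PRAT of 48 Large White barrows of 132 days of age was measured on single-colour porcine arrays, with 1 array per pig and 12 pigs in each of 4 groups. The lines had been selected for low or high residual feed intake (RFI), where low RFI marks pigs that eat less than their growth predicts. Within each line, pigs had free access to feed rich in fat and fiber (HF) or to feed low in both and rich in starch (LF). The groups were thus HF_RFIneg and LF_RFIneg for low RFI, and HF_RFIpl and LF_RFIpl for high RFI. Each line is 1 selected population, so that a difference between lines holds for these populations, and no group was fed another diet as a reference.

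IGF1 and IGF2 act on growth and metabolism through IGF1R, a receptor tyrosine kinase, whereas IGF2R binds IGF2 at the cell surface and takes it into the cell for degradation, besides sorting lysosomal enzymes. Most circulating and tissue IGF is held by binding proteins, which keep it from the receptors or release it on proteolysis. In adipose tissue, the system is known for its part in the growth and differentiation of fat cell precursors.

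Values are the median spot signal on the log2 scale minus the median over the non-control probes of its array, so that 0 is the median probe of the array and a difference of 1 is a doubling. Pigs are compared at the same probe. Across probes, levels serve only to rank brightness, to set a probe against the array median and to sum markers. In such sums, bright probes weigh most. Differences are HF minus LF over both lines, or low RFI minus high RFI over both diets, each with its 95% confidence interval. They came from 1 limma fit of diet, line and their interaction over 48 arrays. A probe was called at a raw p under 0.01, a fold over 1.1 and a Benjamini-Hochberg (BH) adjusted p under 0.08 over all probes tested, which are the thresholds of the study's methods.

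Between diets, 4 of the 39 IGF probes (10.3%) were called, beside 24.5% of all probes tested. Probes of a gene are not separate readings, and IGF2 alone has 8 of them. Counted by gene at its brightest kept probe, 3 of the 10 members were called, beside 25.3% of all genes. The 2 probes of IGFBP3 and 1 of 3 IGF1R probes were higher in HF pigs, and 1 of 4 tested IGF2R probes was lower. By direction, 8.97% of all probes were called higher and 15.5% lower. The median difference was 0.06 over the IGF probes, where genes with many probes weigh most, against -0.02 over all probes. Between lines, none of the 39 IGF probes was called by limma or by the two-way ANOVA, beside 3.6% of all probes (1.83% higher and 1.77% lower in low RFI pigs), and 3 had a raw p under 0.05. Within a diet, none was called between lines either, beside 1.06% of all probes in HF and 0.469% in LF pigs, with 2 and 1 IGF probes at a raw p under 0.05 by limma. For the diet by line interaction, none was called, as for all probes (0%), and 1 IGF probe had a raw p under 0.05 by limma. With diets compared within a line, 3 IGF probes were called in high RFI pigs, beside 15.3% of all probes, and none in low RFI pigs, beside 13.4%, where 3 had a raw p under 0.05 by limma.

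**Figure D1:**
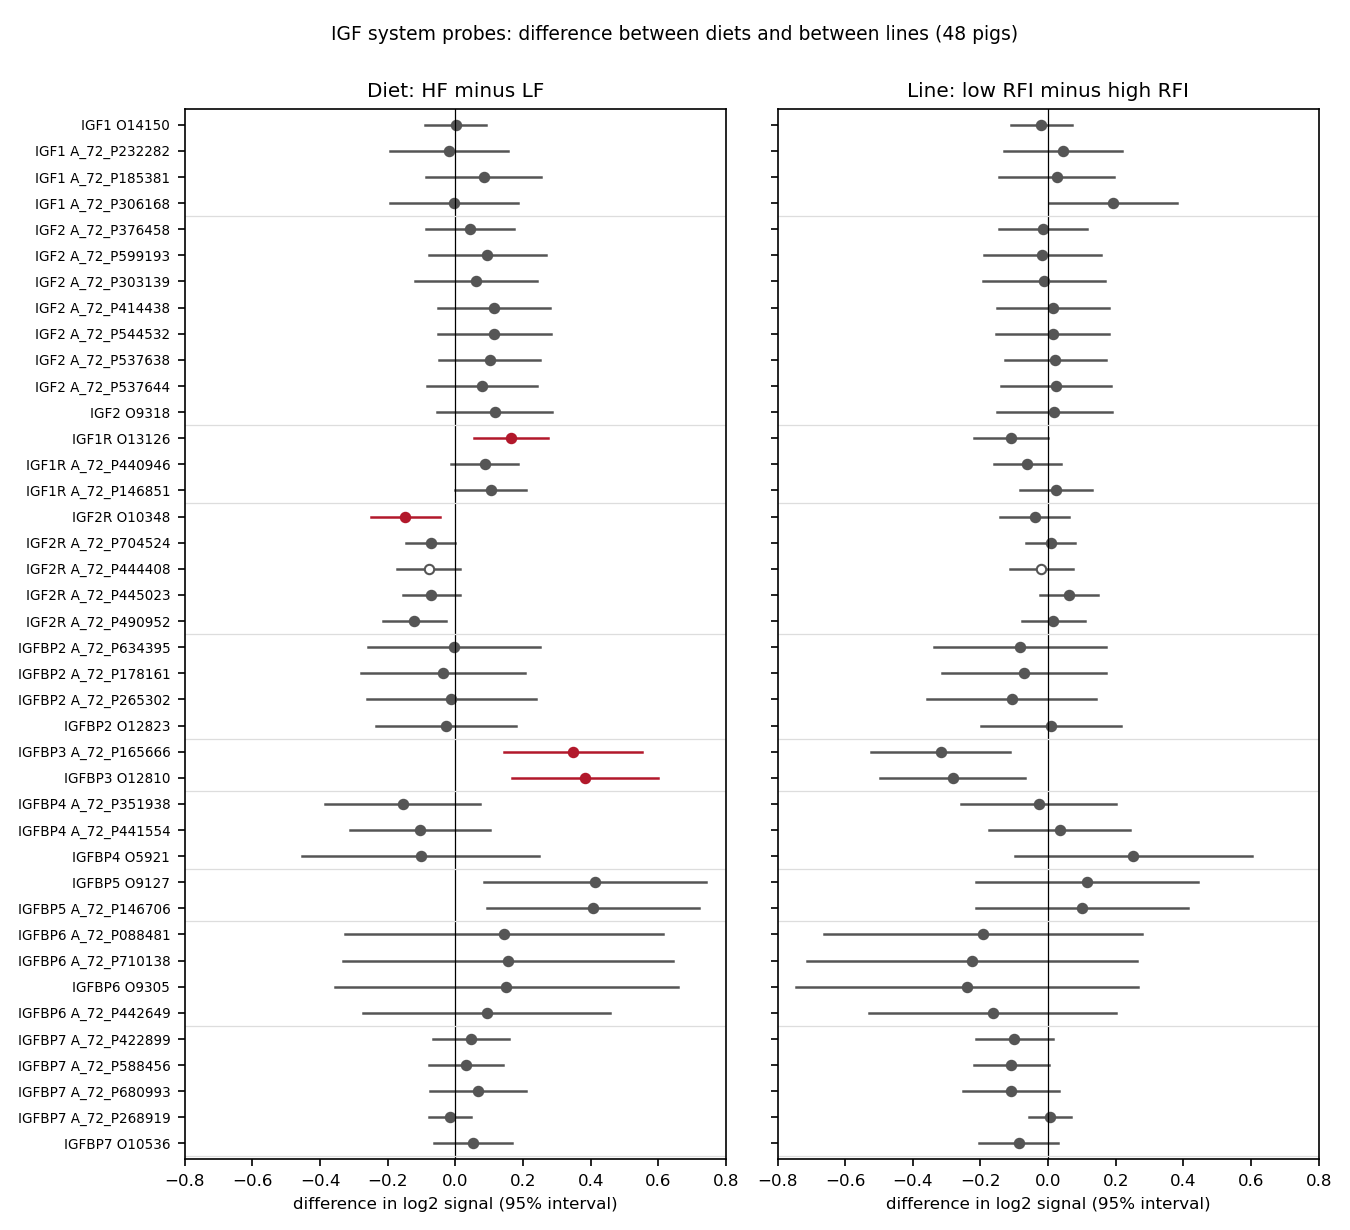
Log2 difference of each of the 40 IGF probes between diets (HF minus LF) and between lines (low RFI minus high RFI), with bars for the 95% confidence interval over 48 pigs; red marks a call, an open point the probe that was not among those kept. Only 2 IGFBP3 probes, 1 IGF1R probe and 1 IGF2R probe are marked, all for diet, and the widest bars are those of IGFBP6.

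The probes are 60 bases long, and several share bases, which decides how far a second probe is a further measurement. The IGFBP3 probes, A_72_P165666 and O12810, overlap by 30 bases and are thus not independent readings of the transcript. The shared stretch, 5′ to 3′ and in capitals throughout since it is common to both, is
IGFBP3 shared stretch: TCAAATATGCCTTATTTTGCACAAAAGACT
For IGF1R and IGF2R, the first 30 bases of the probe that was called are shown, since the other probes of these genes read other stretches.
IGF1R O13126: agaacaaggctacaatacgatgattgctag
IGF2R O10348: ggtttgtactccgtttggctggcttatttg
The remaining IGF1R probes, which were not called, share no run of 20 bases or more with the one above or with each other, and 1 of them is shown.
IGF1R A_72_P440946: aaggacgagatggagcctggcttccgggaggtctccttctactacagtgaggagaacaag

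IGF1, the ligand through which much of the action of growth hormone on tissues runs, did not differ detectably with diet. At its brightest probe, O14150, levels were 3.85 at the lowest, 3.99 at the median and 4.51 at the highest in HF pigs and 3.68, 4.02 and 4.31 in LF pigs. The ranges overlapped almost entirely, and the difference was 0.00 (95% interval -0.09 to 0.09, BH p = 0.994, limma). Over the 4 IGF1 probes, differences between diets lay between -0.02 and 0.08 and those between lines between -0.02 and 0.19. The dimmest of them, A_72_P306168, carried the single raw interaction p under 0.05 among the IGF probes. Its median was 0.37 in LF_RFIneg, 0.08 in HF_RFIneg, -0.11 in LF_RFIpl and 0.12 in HF_RFIpl. In the fit, which compares group means, HF differed from LF by -0.23 in low RFI pigs and by 0.22 in high RFI pigs. The difference of these differences, -0.44 (raw p = 0.022), did not pass the adjustment (BH p = 0.9999, limma). The 3 other IGF1 probes gave interactions of -0.06, 0.00 and -0.15, with raw p of 0.524, 0.981 and 0.387. Among LF pigs, A_72_P306168 was higher in low RFI pigs by 0.42 (raw p = 0.0031, BH p = 0.236, limma). The 3 other probes differed there by 0.01, 0.05 and 0.10.

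IGF2, the ligand encoded next to the insulin gene in the Sscrofa11.1 annotation and imprinted in mammals, was read by 8 probes that moved together from pig to pig, with r between 0.81 and 0.99 within groups. A_72_P414438 and A_72_P544532 hold the same 60 bases and correlate at 0.99. Pairs with the same 60 bases at other members, described below, correlate less. Their r is 0.86 for IGFBP3, 0.91 for IGF2R and 0.52 for an IGFBP7 probe. A_72_P537638 and A_72_P537644 overlap by 38 bases, in capitals, and correlate at 0.97.
IGF2 A_72_P544532: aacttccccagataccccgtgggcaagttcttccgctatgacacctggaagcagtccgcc
IGF2 A_72_P537638: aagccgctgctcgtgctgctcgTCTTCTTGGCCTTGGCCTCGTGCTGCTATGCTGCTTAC
IGF2 A_72_P537644: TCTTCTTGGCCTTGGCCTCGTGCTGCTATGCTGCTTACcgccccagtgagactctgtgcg
At the brightest probe, A_72_P376458, HF pigs lay at 8.56, 9.10 and 9.39 (lowest, median, highest) and LF pigs at 8.66, 9.07 and 9.78, with no separation of the diets. All 8 differences between diets were above 0, from 0.04 to 0.12, but none passed (BH p from 0.298 to 0.647, limma), and the widest interval among the 8 reached 0.29. Between lines, the 8 differences ran from -0.02 to 0.02.

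IGF1R, the receptor that signals for both ligands, was higher in HF pigs at probe O13126. HF pigs lay at 3.33, 3.71 and 4.12 and LF pigs at 3.01, 3.58 and 3.98 (lowest, median, highest). The ranges overlapped, with 20 of 24 HF pigs above the LF median. The difference was 0.16 (95% interval 0.06 to 0.27, 1.12-fold, BH p = 0.018, limma), and it was of like size in the lines, at 0.15 for low and 0.18 for high RFI. It was 0.22 on the first and 0.10 on the second of the 2 scan days and above 0 on 5 of 6 slides, each of which held 2 pigs of every group. The other IGF1R probes, which were dim with median intensities of 83.0 and 71.0, below the median of every array, gave 0.09 (-0.01 to 0.19, BH p = 0.175) and 0.10 (-0.00 to 0.21, BH p = 0.123), with 21 and 19 of 24 HF pigs above the LF median. All 3 were called when arrays were centred on the spike-in controls, a scaling that raised the median difference of all probes from -0.02 to 0.08. With line, O13126 differed by -0.11 (-0.22 to 0.00, raw p = 0.051, BH p = 0.388, limma). Its probes followed each other only loosely from pig to pig (r from 0.39 to 0.49).

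IGF2R, the receptor that clears IGF2, was lower in HF pigs at O10348, its brightest probe. Levels were 5.52, 5.81 and 6.15 in HF and 5.67, 5.98 and 6.29 in LF pigs (lowest, median, highest), and 7 of 24 HF pigs exceeded the LF median. The difference was -0.15 (95% interval -0.25 to -0.05, 0.90-fold, BH p = 0.022, limma), with -0.15 among low and -0.14 among high RFI pigs, and it was below 0 on all 6 slides. A probe that the files name M6P/IGF2R holds the same 60 bases, followed it with r = 0.91 and differed by -0.16. A second probe of that name, which shares at most 5 bases in a row with it, had an r of -0.10 with it and differed by -0.14 (raw p = 0.101). The call is narrow. It was lost when 75th percentiles, spike-in controls or quantiles set the scale and without HF_RFIneg replicate 3, 7 or 11, HF_RFIpl replicate 6 or LF_RFIneg replicate 12, although the difference remained below 0 in each of these, between -0.15 and -0.04 over the alternatives and between -0.14 and -0.13 without 1 of those pigs. The 4 other IGF2R probes, of which 1 was not among those kept, were at -0.12 to -0.07, and only A_72_P490952 had a BH p under 0.08 (0.040, raw p = 0.011). A kept spot named only by a sequence record shares 57 bases in a row with A_72_P490952. It followed that probe at r = 0.31 and differed by -0.06 (raw p = 0.196, limma). A probe not kept that also shares 57 bases followed it at 0.42 and differed by -0.09 (raw p = 0.035, limma).

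IGF2R probes agreed poorly among themselves, with r from 0.06 to 0.44 over their 10 pairs. Overlap did not raise the agreement: the pair below shares 28 bases, in capitals, and correlates at 0.33.
IGF2R A_72_P445023: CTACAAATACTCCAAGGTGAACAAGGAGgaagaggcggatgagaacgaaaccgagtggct
IGF2R A_72_P490952: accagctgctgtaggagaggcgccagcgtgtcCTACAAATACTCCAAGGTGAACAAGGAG
These dim probes had intensities between 74 and 136, where the median of an array lay between 115 and 178, and their spread from pig to pig was small, at a residual SD of 0.14 and 0.16.

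IGFBP3, the main carrier of IGF in blood, showed the largest difference between diets among the members called. At A_72_P165666, HF pigs lay at 1.75, 2.32 and 3.14 and LF pigs at 0.82, 1.98 and 2.68 (lowest, median, highest). The ranges overlapped, and 19 of 24 HF pigs exceeded the LF median. The difference was 0.35 (95% interval 0.14 to 0.55, 1.27-fold, BH p = 0.0080, limma), and O12810 gave 0.38 (0.17 to 0.60, 1.30-fold, BH p = 0.0054). The probes rose and fell together from pig to pig (r = 0.98). A further spot with the same 60 bases as A_72_P165666, which the files name only by a sequence record and which is therefore no member, differed by 0.28 (raw p = 0.0084) and followed it with r = 0.86. Both member probes were called under all 14 alternatives and without any 1 of the 48 pigs.

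The size of the IGFBP3 difference was uneven over the arrays. On the first scan day it was 0.55 for A_72_P165666 and 0.65 for O12810, and on the second 0.15 and 0.11, with slides from -0.01 to 0.78 for the former; the difference between days was not tested. It was 0.29 among low and 0.41 among high RFI pigs, and these did not differ detectably (interaction -0.12, raw p = 0.563, limma). Between lines, IGFBP3 was the nearest of all members to a call. The medians of A_72_P165666 were 2.24 in HF_RFIneg and 2.68 in HF_RFIpl, and 1.91 in LF_RFIneg and 2.19 in LF_RFIpl, so that low RFI was lower on either diet. Only 3 of 24 low RFI pigs exceeded the high RFI median. The difference was -0.32 (-0.52 to -0.11, 0.80-fold, raw p = 0.0031), but its BH p of 0.083 by limma stood just outside the threshold of 0.08. O12810 differed by -0.28 (BH p = 0.179). The first of these line differences was called under 7 of 14 alternatives, and without 1 pig in 13 of 48 cases, with values between -0.35 and -0.27 over those 48.

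**Figure D2:**
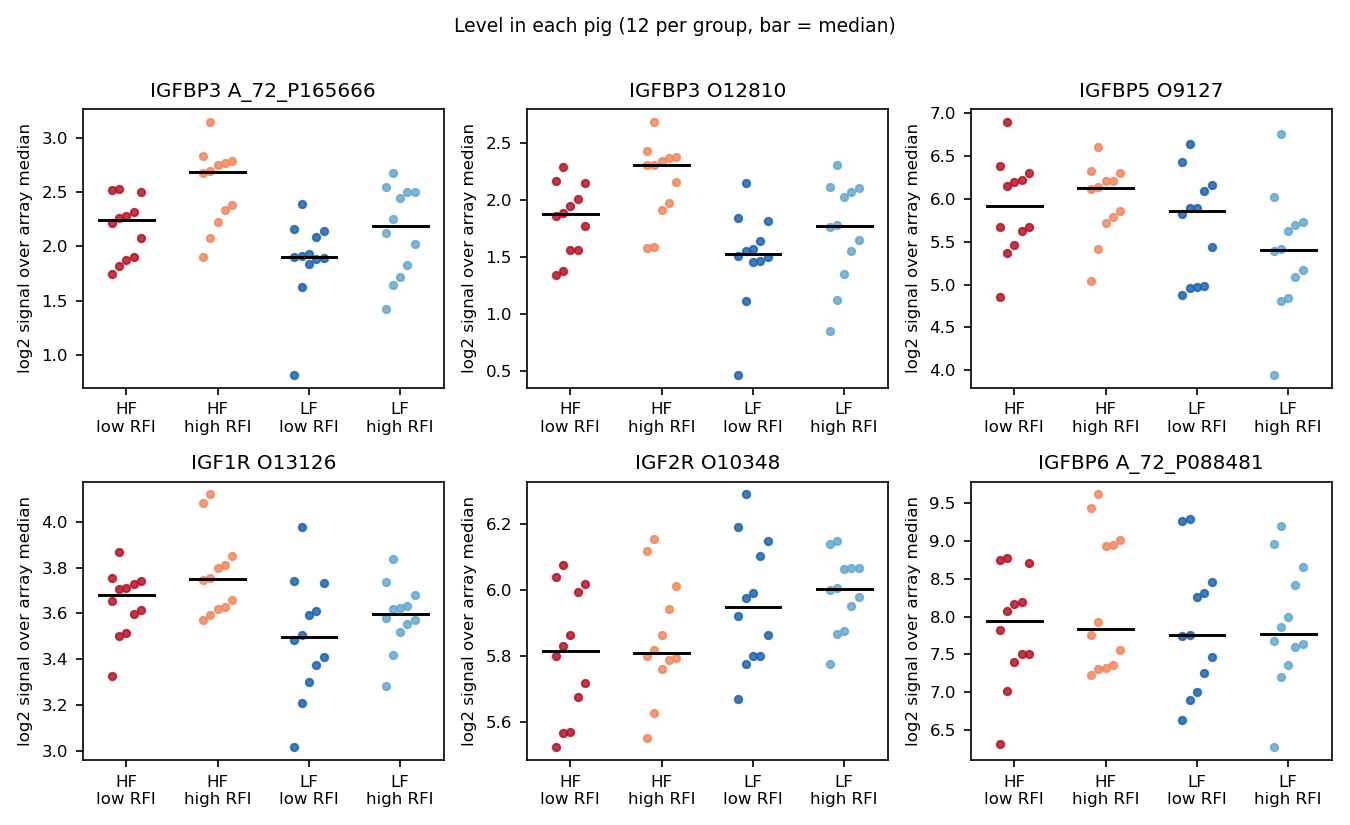
Log2 level of each pig, relative to the median of its array, in the 4 groups of 12 for 6 IGF probes; bars are group medians. In both IGFBP3 panels HF groups lie above LF groups of the same line with overlap, and the IGFBP6 panel shows the widest scatter, from 6.27 to 9.61.

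IGFBP5, a binding protein held in the extracellular matrix and found on stromal cells, had the largest fitted difference between diets of any member but was not called. At O9127, HF pigs lay at 4.85, 6.12 and 6.90 and LF pigs at 3.95, 5.53 and 6.75 (lowest, median, highest), with 19 of 24 HF pigs above the LF median. The difference was 0.41 (95% interval 0.08 to 0.74, 1.33-fold, BH p = 0.049), and its raw p of 0.015 by limma missed the limit of 0.01. A_72_P146706, which shares no run of 20 bases with O9127, also gave 0.41 (0.09 to 0.72, BH p = 0.042, raw p = 0.012), and the pair correlated at 0.91.
IGFBP5 A_72_P146706: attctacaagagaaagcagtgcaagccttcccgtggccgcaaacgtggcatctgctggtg
Both gave 0.60 in high RFI pigs and 0.22 in low RFI pigs. In high RFI pigs A_72_P146706 was called together with both IGFBP3 probes, while the interaction was -0.38 for each of them (raw p = 0.246 and 0.233, limma). Both IGFBP5 probes were called when the slide, which holds 2 pigs of every group, was a block in the fit. In all, they were called under 5 and 6 of 14 alternatives and without 1 pig in 6 and 11 of 48 cases, always above 0. Residual SDs of 0.58 and 0.56 lay above those of IGFBP3, at 0.36 and 0.38.

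IGFBP6, which prefers IGF2 to IGF1, varied most of all members. A_72_P088481 ran from 6.32 to 9.61 in HF pigs, with a median of 7.87, and from 6.27 to 9.29 in LF pigs, with a median of 7.75, a range of 3.34 over all pigs in which the 4 groups overlapped. Its 4 probes had residual SDs between 0.65 and 0.90 and correlated at 0.97 or more. Their differences were 0.09 to 0.16 between diets and -0.24 to -0.16 between lines, with intervals for diet as wide as -0.36 to 0.66. None passed (BH p of at least 0.652 for diet and 0.782 for line, limma). The differences fitted for IGFBP3 between diets, 0.35 and 0.38, lie within the intervals of all 4 probes.

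IGFBP2, a binding protein that preadipocytes release, and IGFBP4, which mostly restrains IGF action, did not pass either. The 4 IGFBP2 probes, of which 3 share 51 to 54 bases, lay between -0.04 and 0.00 for diet and between -0.11 and 0.01 for line, and the brightest had an interval of -0.26 to 0.25 for diet. The 3 IGFBP4 probes were at -0.16 to -0.10 for diet and -0.03 to 0.25 for line. At the brightest IGFBP4 probe, A_72_P351938, HF differed from LF by -0.33 in high RFI pigs and by 0.02 in low RFI pigs (interaction 0.35, raw p = 0.127, limma).

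IGFBP7, which binds IGF weakly and is abundant in vessel walls, was read by 5 probes of which 4 moved together. These 4 differed by 0.03 to 0.07 between diets and by -0.11 to -0.09 between lines, none past the test. The fifth, A_72_P268919, went against them from pig to pig, with r between -0.43 and -0.28. Its 60 bases are those of a probe that the files name POLR2B, a subunit of RNA polymerase II, whose gene is the neighbour of IGFBP7 in the Sscrofa11.1 annotation. It correlated with that probe at 0.52 and with a second POLR2B probe, which shares at most 6 bases in a row, at 0.53. Its first 30 bases are given for the comparison with the others.
IGFBP7 A_72_P268919: gatgagtgtttagctctcttacaactctgt
A further pair reads opposite strands: the first 20 bases of each, in capitals, are the reverse complement of each other, yet the probes correlated at 0.84.
IGFBP7 A_72_P680993: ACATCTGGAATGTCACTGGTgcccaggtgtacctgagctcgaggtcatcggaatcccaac
IGFBP7 O10536: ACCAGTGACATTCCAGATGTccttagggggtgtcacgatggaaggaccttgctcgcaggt

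**Figure D3:**
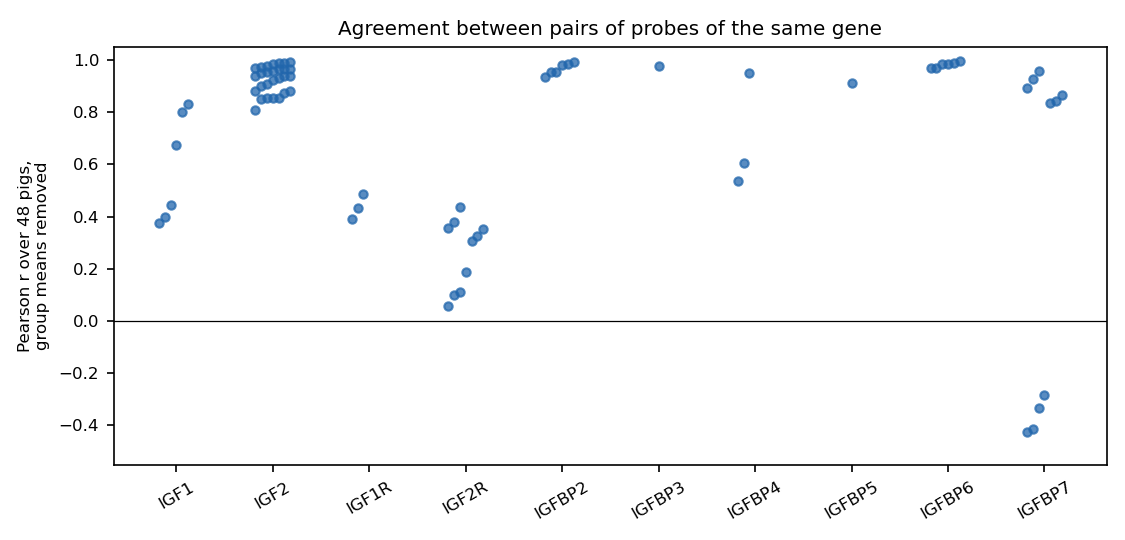
Pearson r over 48 pigs, after group means were removed, for every pair of probes of the same IGF gene. Pairs of IGF2, IGFBP2, IGFBP3, IGFBP5 and IGFBP6 lie above 0.80, IGF2R pairs between 0.06 and 0.44, and the pairs below 0 are those of the IGFBP7 probe A_72_P268919.

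Members were also set against each other over the 48 pigs, at the brightest probe of each gene and after the group means were removed. All points share an array and its centring, so that r is given as a description. IGFBP5 and IGFBP6 correlated at 0.53, IGFBP2 and IGFBP6 at 0.49, IGF2 and IGFBP5 at 0.49, and IGFBP2 and IGFBP5, whose genes are neighbours in the Sscrofa11.1 annotation, at 0.48. IGF2R, read at O10348 alone, ran the other way, at -0.43 with IGFBP5 and -0.41 with IGFBP6. IGFBP3, whose neighbour is IGFBP1, followed none of these (r of 0.00 with IGFBP5 and -0.18 with IGFBP6).

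**Figure D4:**
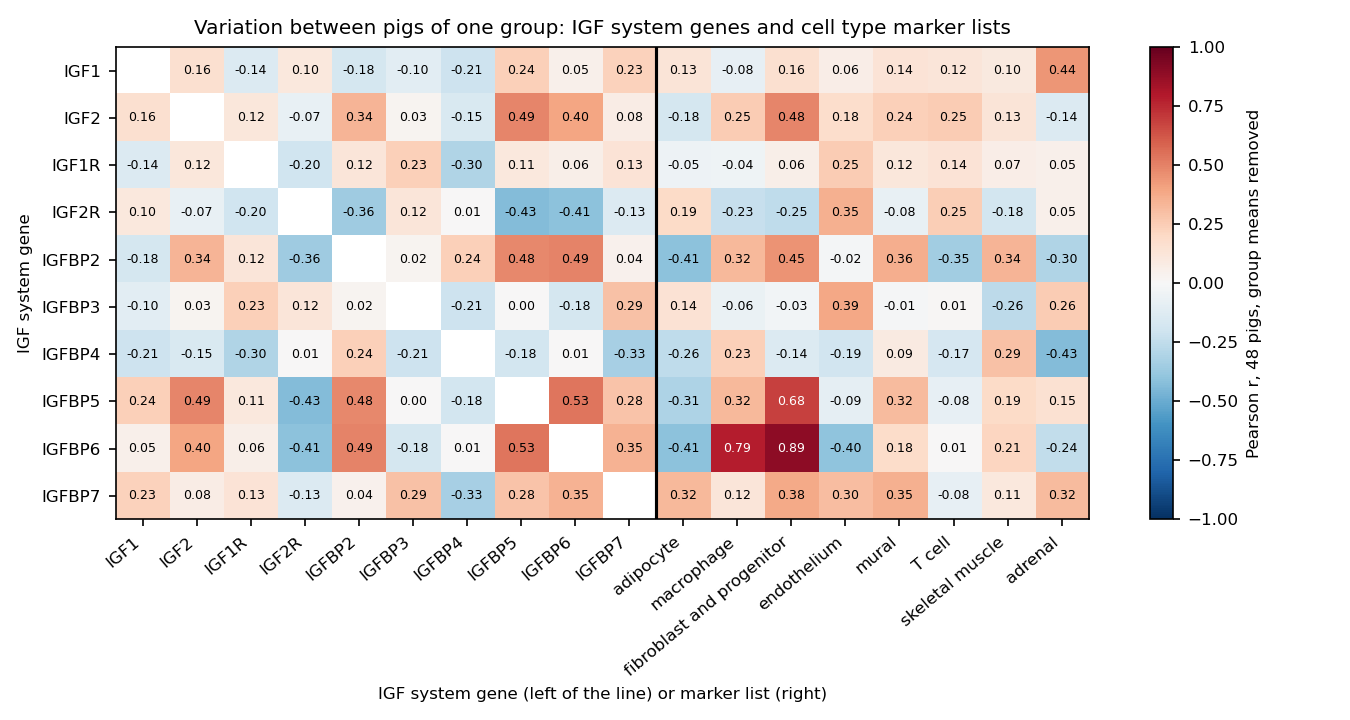
Pearson r over 48 pigs, after group means were removed, between the brightest probes of the 10 IGF genes and with the summed level of the marker lists of cell types. IGFBP6 and IGFBP5 stand out with the fibroblast list, at 0.89 and 0.68, and IGFBP6 with the macrophage list, at 0.79.

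The labelled tissue was checked against its markers. ADIPOQ, an adipocyte hormone, had medians of 10.25 in HF and 10.16 in LF pigs, far above the median probe. Summed over the list of 6 fibroblast and progenitor markers, levels ran from 1357 to 3174 times the array median in HF pigs (median 1965). In LF pigs they ran from 904 to 3021 (median 1719). None of the 6 was called for diet, but all 6 were higher in HF pigs, by 0.09 to 0.31. The fibroblast sum correlated with IGFBP6 at 0.89 and with IGFBP5 at 0.68. Of 5 macrophage markers 3 were higher in HF pigs, CD163, CSF1R and C1QA, by 0.70, 0.48 and 0.80, and their summed level was 18.6 to 146 (median 60.6) in HF and 14.7 to 113 (median 37.0) in LF pigs. That sum correlated with IGFBP6 at 0.79 and with IGFBP5 at 0.32, but with IGFBP3 at -0.06, IGF1R at -0.04 and IGF2R at -0.23. Of 6 adipocyte markers, LEP and CIDEC were lower in HF pigs, by -0.94 and -0.24. The part of these cell types in the differences of IGF probes was not tested, and in such bulk tissue fewer cells of a type and less RNA per cell cannot be told apart. AQP2, the single kidney marker tested, was lower by -0.63 in HF pigs (1.72 to 3.43 against 2.26 to 3.98 in LF pigs). No marker of mural cells, T cells, skeletal muscle or adrenal tissue was called for diet, and no marker of any list was called between lines.

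For the 3 members whose brightest probe differed most in units of its standard error, the named genes most alike over the 48 pigs within groups were listed. Each r below that ranks a gene is among the highest over all kept named probes, so that the choice itself raises it. None was tested. IGFBP3 was closest to PECAM1, an adhesion molecule of endothelial cells, at r = 0.55, then to ERG and MYCT1, both at 0.50. Its r with the summed level of 4 endothelial markers, PECAM1 among them, was 0.39, and none of the 4 was called for diet (sum 224 to 336 times the array median in HF pigs and 196 to 336 in LF pigs). The PECAM1 probe closest to IGFBP3, A_72_P077376, differed by 0.00 between diets and 0.06 between lines. The PECAM1 probe in the sum, A_72_P650260, differed by 0.02 and 0.05. IGF1R was closest to CXCL2 (0.53), TRPS1 (0.50) and PDE3A (0.49). Beside the probe that shares its bases, the IGF2R probe O10348 was closest to ROCK2 (0.82) and GGTA1 (0.77). O10348 followed the other IGF2R probes less, with r of 0.06 to 0.44, and the second M6P/IGF2R probe at -0.10. Its likeness therefore holds for this probe and was not seen at the gene as a whole.

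Of 32 other genes of the pathway, 29 had a probe and 26 were tested, each at its brightest kept probe. Between diets 4 of 26 (15.4%) were called, 3 higher and 1 lower in HF pigs, beside 25.3% of all genes, and between lines 1 (3.85%) was called, beside 3.35%. The genes called for diet were feedback inhibitors of growth hormone signalling and adaptors of the receptors.

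In the growth hormone axis, 1 of 6 genes was called higher and 1 lower with diet. SOCS2, which restrains growth hormone receptor signalling, lay at 2.08, 2.69 and 3.32 in HF pigs and 1.75, 2.29 and 2.70 in LF pigs (lowest, median, highest) and differed by 0.38 (BH p = 6.3e-05, limma). Its 3 other probes were called too, at 0.26, 0.26 and 0.33. CISH, an inhibitor of the same family, went the other way, at 0.25, 0.68 and 1.36 in HF pigs and 0.09, 1.03 and 1.97 in LF pigs, with a difference of -0.33 at its single probe (BH p = 0.0062, limma). Their diet groups overlapped. GHR, the growth hormone receptor itself, differed by -0.12 (BH p = 0.211). STAT5A, a transcription factor downstream of it, was the gene called between lines: low RFI pigs lay at 4.73, 5.25 and 5.63 and high RFI pigs at 4.56, 5.09 and 5.60, with a difference of 0.20 (BH p = 0.066, limma). Of its 3 other probes, 2 were called, at 0.29 and 0.26, and 1 at 0.14 was not.

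Of 15 tested genes of receptor signalling, 2 were higher in HF pigs. GRB10, an adaptor that binds and restrains the insulin and IGF1 receptors, lay at 5.26, 6.43 and 7.14 in HF and 5.24, 6.08 and 7.07 in LF pigs and differed by 0.38 (BH p = 0.029, limma). Of its 5 other probes, 2 were called, at 0.39 and 0.41, and 3 at 0.38, 0.37 and 0.08 were not. GRB2, the adaptor that leads to the Ras pathway, differed by 0.14 (BH p = 0.016, limma), with medians of 5.49 in HF and 5.39 in LF pigs, but its 3 other probes, at -0.09, -0.04 and -0.04, had the opposite sign and were not called. INSR, the insulin receptor, was at 0.04 (BH p = 0.580). With 1 pig left out, GRB10, GRB2 and STAT5A were called in 30, 33 and 32 of 48 cases, with differences of 0.34 to 0.43, 0.12 to 0.16 and 0.18 to 0.22.

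None of the 3 tested carriers and modifiers of IGF access and none of the 2 tested IGF2 mRNA-binding proteins was called. IGFBP1 was singled out after its values were seen because it missed only the limit of 1.1-fold. At the brighter of its 2 kept probes it differed by 0.13 between diets (BH p = 0.0039, limma). Medians were 5.30 in HF and 5.20 in LF pigs, and the other kept probe is not given here.

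**Figure D5:**
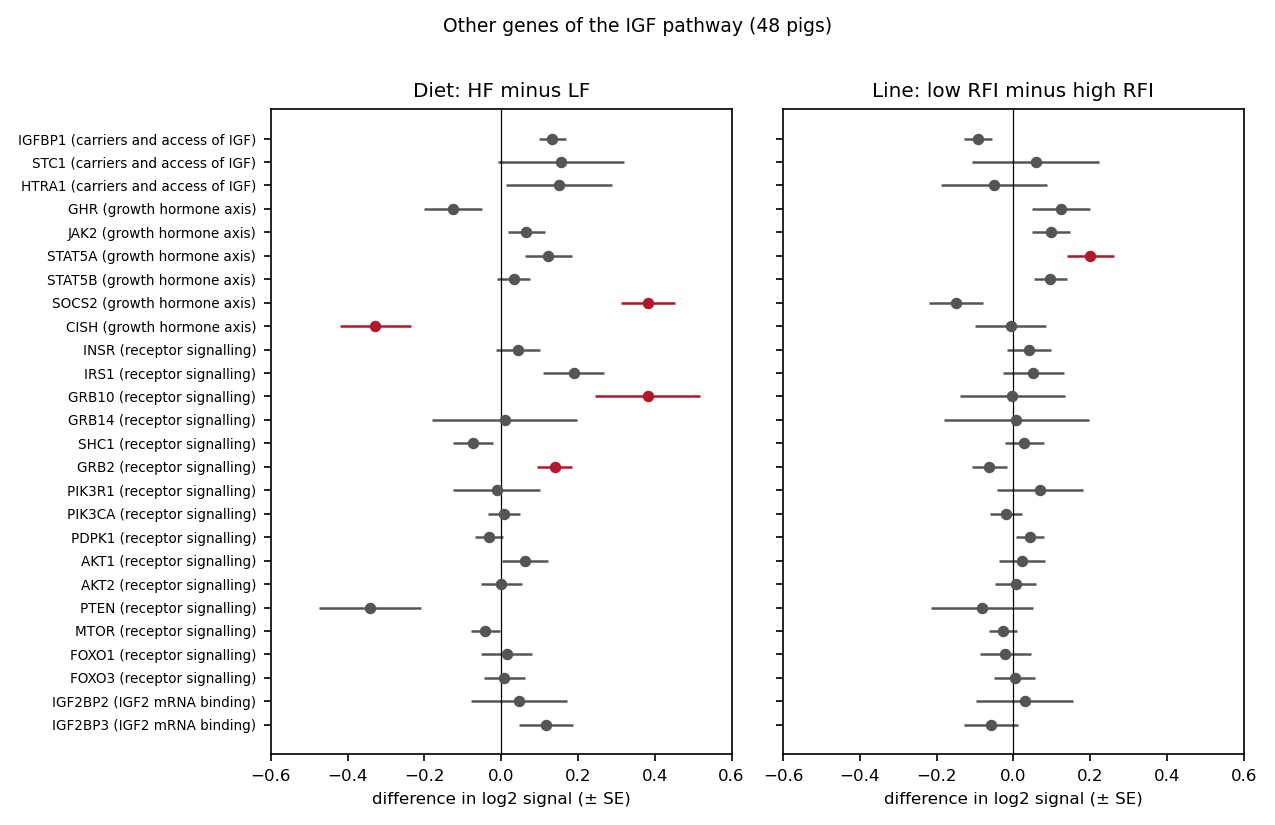
Log2 difference between diets and between lines of the 26 other IGF pathway genes tested, with bars for the standard error over 48 pigs; red marks a call. SOCS2, GRB10 and GRB2 are marked above 0 and CISH below 0 for diet, and STAT5A above 0 for line.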

How the data were processed

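PRAT of 48 pigs was measured on 1 Cy3 array each. Spot intensity values and flags were deposited as the authors' scanner software (Feature Extraction) wrote them, without normalization between arrays. The log2 table was deposited after the authors had dropped dim, uneven, saturated and outlying spots and set the median of each array to 0. All 38142 rows of that table matched 1 spot within 1e-06, but the row name was that of the spot in only 2, so names were taken from the spots. The submitters' notes name R 2.10.0.

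Here, log2 of the median signal minus the array median was fitted in limma 3.58.1 (R 4.3.3) with diet, line and interaction. Spots of the same probe name were averaged. Median intensity was 115 to 178 per array, 38875 to 47814 probes were above background, and the number of arrays limits the precision. Slides (6) and scan days (2) came from the file headers and were tested as blocks, besides other centrings, background corrections, filters, ANOVA and pigs left out. No deposited column was left without a sample. On simulated data, 48 of 50 probes changed by 0.5 were called, for diet and for line, and so were 9 and 14 unchanged probes. Smaller changes were not simulated. All diet and line differences of the members were smaller than 0.5, so that the simulation does not give the power for them. Figures (matplotlib 3.10.9) and correlations (numpy 2.4.6, pandas 2.3.3) were made in Python 3.11.15.

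The members and lists were chosen with earlier results of these data known. Named were all members, pathway genes called at their brightest probe (up to 3 a list, by size) and, for the 3 members with the largest difference in standard errors, the 3 genes most alike. No genome was used, so that probe positions are not given. P-values measure the spread between pigs.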

Additional observations from a re-analysis of the deposited data

How the results depend on the processing

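Between diets, 4 IGF probes were called, and 4 to 7 under 14 alternatives: 7 under spike-in centring, and 3 to 7 with 1 pig left out (7 without HF_RFIneg replicate 1). The IGFBP3 and IGF1R calls held throughout. Both IGFBP5 probes were called with the slide as a block, which gave 6 calls in all. Without 1 pig, IGFBP5 reached a call at both probes for HF_RFIneg replicate 1, HF_RFIpl replicate 11, LF_RFIneg replicates 6 or 8 and LF_RFIpl replicates 5 or 9, and at A_72_P146706 also for HF_RFIneg replicates 3 or 6, HF_RFIpl replicate 8 and LF_RFIpl replicates 1 or 10, at 0.43 to 0.47. The IGF2R call was lost under the 75th percentile, spike-in, quantile and normexp alternatives and without HF_RFIneg replicates 3, 7 or 11, HF_RFIpl replicate 6 or LF_RFIneg replicate 12. Between lines, 0 were called, but 1 (IGFBP3) under centring on kept probes, the 75th percentile or spike-in controls, under quantile, processed-signal and normexp values and without the interaction term. With 1 pig left out the count was 0 to 2: 2 without LF_RFIpl replicate 4, and 1 without HF_RFIneg replicates 3, 6 or 9, HF_RFIpl replicates 3, 8 or 12, LF_RFIneg replicates 8, 10 or 12, or LF_RFIpl replicates 3, 7 or 11. No interaction was called in any of these fits.

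For the other pathway genes, the diet count of 4 became 8 under spike-in centring, 7 under quantile normalization, 7 under normexp and 2 when a gene's kept probes were averaged. It was 2 to 6 with 1 pig left out, with 2 without HF_RFIneg replicates 5 or 7, HF_RFIpl replicate 9, LF_RFIneg replicate 11 or LF_RFIpl replicate 7. The line count of 1 became 0 under spike-in centring, 0 under processed signals, 0 under normexp, 0 without the filter and 0 at a BH p under 0.05. It was 0 to 1 with 1 pig left out, with 0 without HF_RFIneg replicates 2, 5, 11 or 12, HF_RFIpl replicates 1, 6 or 12, LF_RFIneg replicates 1, 2, 5, 7, 8 or 12, or LF_RFIpl replicates 7, 9 or 10. The named pathway genes were followed singly, a choice made after seeing the data: CISH was not called under spike-in centring (-0.22), and SOCS2 was called in all 14 alternatives and with any of the 48 pigs left out.

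Scaling moved the whole array. Of all probes, 3423 were called higher and 5912 lower between diets, against 9336 and 1703 under spike-in centring, 4543 and 4707 at the 75th percentile, 4701 and 4361 under quantile normalization, 5022 and 4924 with processed signals and 4440 and 4149 under normexp. No called difference of a member changed sign. Of 1092 values of a probe under an alternative, 41 changed sign, of which 21 under spike-in centring, and 137 of 3744 with 1 pig left out, none of them called. The causes of these changes were not tested.

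The 72 pairs of equal replicate number had a median r of 0.12 (38 over 0.1), others -0.01. As all 72 shared a slide, pairing could not be judged. With the replicate block, 6 IGF probes were called for diet (both IGFBP5 probes added) and 0 for line, 10149 of all probes for diet and 1832 for line, and 5 pathway genes for diet and 1 for line.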
